A study of Mus musculus with 12 samples.

Results

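The 35 genes described here encode factors that build and maintain the hepatocyte's gene programme. They comprise 19 nuclear receptors and 16 other DNA-binding factors or their partners, among them the C/EBP, FoxA and Onecut families. The genes were taken by symbol from a roster of known liver factors, which was drawn up with earlier results of these data known. The rule sets no threshold on a measured value. All 35 were measured, each by 1 probe set, among 25206 probe sets on the array and 23186 named genes that entered the tests.

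Hepatocyte identity rests on a network of factors that bind each other's promoters as well as the genes of plasma proteins, lipid handling and detoxification. Hnf4a, a nuclear receptor, is a central node of that network, while FoxA and GATA factors open chromatin in the early liver bud and C/EBP proteins drive metabolic and acute-phase genes. Most of the other nuclear receptors are sensors: Nr1h4 (FXR) binds bile acids, Nr1h2 and Nr1h3 (LXRs) bind oxysterols, Ppara binds fatty acids, Nr1i2 (PXR) and Nr1i3 (CAR) respond to foreign compounds, and many of them act as dimers with Rxra.

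The livers came from 12 mice aged 5 days, each hybridised to an Affymetrix whole-transcript array, and all mice were labelled male. The kinase gene Lkb1 (Stk11) was the target in 1 arm, with 3 Cre-positive livers carrying the liver-specific deletion (LKB1 KO) and 3 Cre-negative normal livers (LKB1 WT). The second arm targeted RbpJk (Rbpj), the DNA-binding effector of Notch signalling, with 3 Cre-positive livers (RbpJk KO) and 3 Cre-negative normal livers (RbpJk WT). The sources used here name neither a Cre driver nor a strain for these newborn mice. No agent was given, and nothing says whether mice of a group shared a litter, so that p-values measure the spread between these livers.

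Stk11 fell in LKB1 KO livers (log2 change -0.80 ± 0.15 (SE), limma adjusted p = 0.0224), from 7.53 to 7.58 in the controls to 6.38 to 7.03. Rbpj was lower in each RbpJk KO liver, at 3.92 to 4.61 against 4.84 to 5.31, without passing the threshold (-0.73 ± 0.19, limma adjusted p = 0.0724), and where the probes lie relative to the deleted parts was not examined. Hepatocyte markers such as Alb and Ttr were at 12.39 or above on every array. In LKB1 KO livers 7 of 7 hepatocyte markers had negative log2 changes (median -0.10), and their summed level, 14.97 at the lowest, did not overlap that of the controls (15.06 to 15.09). The X-inactivation RNA Xist was high (10.63 to 10.75) on 3 control and 1 KO array of the LKB1 arm and on 2 control and 0 KO arrays of the RbpJk arm and at most 5.09 on the rest, against the male labels, so sex pattern and knockout overlap in part. A second fit of each call took Xist class into the model, as 1 term shared by both arms. Only LKB1 KO and RbpJk WT held arrays of both classes, so that term rests on those groups. Pancreatic acinar markers stood high in the library RbpJk WT 1, with a summed level of 11.26 against at most 7.88 elsewhere. Summed cholangiocyte markers were also highest there, at 8.75 against at most 7.44 elsewhere. In the RbpJk arm 4 of 5 cholangiocyte markers had negative log2 changes (median -0.85), 1 was positive and 0 passed the threshold. All 4 measured erythroid markers were negative in that arm, 1 of them past the threshold, with overlapping sums. In the LKB1 arm, 8 of 8 Kupffer cell and 8 of 8 endothelial markers had negative log2 changes, and their summed levels did not overlap (Kupffer 10.89 to 10.98 against 11.21 to 11.34, endothelial 11.05 to 11.18 against 11.37 to 11.45). Summed stellate cell markers did not overlap either (10.43 to 10.62 against 10.63 to 10.73), with 5 of 7 negative, and 5 of 5 B cell markers had negative changes in each arm, with overlapping sums. The part of these shifts in the results below was not tested, and in whole liver fewer cells of a type and less RNA per cell cannot be told apart.

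Of the 3 genes that passed the threshold in a knockout, Nr1i3 and Hnf4a have promoter entries in the RefSeq table (build GRCm38.p6), as do 28 of the 35 genes. The 250 bases before each start are shown because factors of this network are known to bind each other's promoters. They are written 5′ to 3′ on the gene's strand, in lower case, with matches to 6 short motifs, searched on both strands, in capitals. Hnf4a has 2 starts, 40298 bases apart on the plus strand of chromosome 2. In background knowledge the upstream start (P2) serves fetal liver and pancreas and the downstream start (P1) serves mature hepatocytes. The Nr1i3 start lies on the plus strand of chromosome 1.
Hnf4a upstream start, chr2:163506607-163506856: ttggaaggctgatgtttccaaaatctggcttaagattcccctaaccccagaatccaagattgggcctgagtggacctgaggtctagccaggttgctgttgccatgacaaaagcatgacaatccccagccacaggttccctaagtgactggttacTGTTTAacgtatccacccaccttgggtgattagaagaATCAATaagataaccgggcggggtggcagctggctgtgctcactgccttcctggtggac
Hnf4a downstream start, chr2:163546905-163547154: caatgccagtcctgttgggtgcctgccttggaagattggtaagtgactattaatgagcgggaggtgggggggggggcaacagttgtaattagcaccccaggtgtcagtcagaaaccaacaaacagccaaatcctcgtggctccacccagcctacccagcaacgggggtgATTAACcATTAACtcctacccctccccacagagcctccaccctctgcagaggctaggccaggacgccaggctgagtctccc
Nr1i3, chr1:171213720-171213969: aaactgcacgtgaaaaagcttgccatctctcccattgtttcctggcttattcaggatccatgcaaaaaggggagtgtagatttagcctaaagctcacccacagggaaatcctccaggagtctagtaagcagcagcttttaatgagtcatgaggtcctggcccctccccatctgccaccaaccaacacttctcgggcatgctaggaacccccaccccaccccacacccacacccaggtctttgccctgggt

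In the upstream Hnf4a window the capitals mark a FOXA core (TGTTTA) starting 96 bases before the start of transcription and an Onecut core (ATCAAT) 59 bases before it. In the downstream window they mark 2 copies of the HNF1 core ATTAAC, at 81 and 74 bases before the start. These matches do not overlap each other. The Nr1i3 window holds none of the 6 motifs, the others being the RBPJ core TGGGAA, the nuclear receptor core AGGTCA and the C/EBP core TTGCNNAA. Among 32851 promoter windows of this length, chromosome 18 left out, TGTTTA was present in 12%, ATCAAT in 6.72% and ATTAAC in 6.43%. TGGGAA, the motif of the factor deleted in the RbpJk arm, was present in 21.6% of all windows and in 7 of 40 windows (17.5%) of the 28 factors with an entry. A match is only a match of letters, and no match says only that these letters are not in this window. The probe set of Hnf4a gives 1 value for the gene, so transcripts from its starts were not separated.

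In LKB1 KO livers 1 of the 35 factors passed the threshold, the xenobiotic receptor Nr1i3, whose level fell 2.38-fold, and 0 rose. The background was 223 of 23186 genes called (0.962%), with 0.543% lower. At an unadjusted p under 0.05 there were 8 factors (22.9%) against 8.05% of all genes. The median log2 change of the 35 was -0.06, with 16 above 0 and 19 below, and their median absolute change was 0.18 against 0.12 over all genes. In 14 factors (40%) the 3 KO livers lay beyond the 3 WT livers, 4 above and 10 below, where 16.4% of all genes did so, 7.77% above and 8.6% below.

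In RbpJk KO livers 2 of the 35 factors passed the threshold, both upward: Hnf4a rose 1.56-fold and Cebpd, a C/EBP protein of the acute-phase response, rose 1.69-fold. The background was 390 genes called (1.68%), with 1.12% higher. At an unadjusted p under 0.05 there were 14 factors (40%) against 14.5% of all genes. The median log2 change of the 35 was 0.09, with 23 above 0 and 12 below, and their median absolute change was 0.22 against 0.16 over all genes. The KO and WT livers did not overlap in 13 factors (37.1%), 8 of them above and 5 below, against 16.2% of all genes, 8.25% above and 8% below.

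The factors were mostly bright, 34 of 35 lying above the median level of all genes, 4.9, and their within-group SD had a median of 0.17 against 0.20 for all genes. Among the 11593 genes brighter than the median, 1.76% were called in the LKB1 arm and 2.82% in the RbpJk arm. Unadjusted p-values under 0.05 were seen in 12.5% and 19.7% of those brighter genes, and non-overlapping groups in 21.8% and 21.5%. The calls, 1 factor (2.86%) in the LKB1 arm and 2 (5.71%) in the RbpJk arm, are few in absolute terms. Their shares were above both backgrounds, but 1 call among 35 factors is already 2.86%, so any call at all would be. No excess of calls can be read from these few genes. The shares of non-overlapping factors were also above both backgrounds. With 3 livers against 3, an exact two-sided permutation test of a single gene cannot go below p = 0.1, which is the value it gave for each non-overlapping factor.

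**Figure D1:**
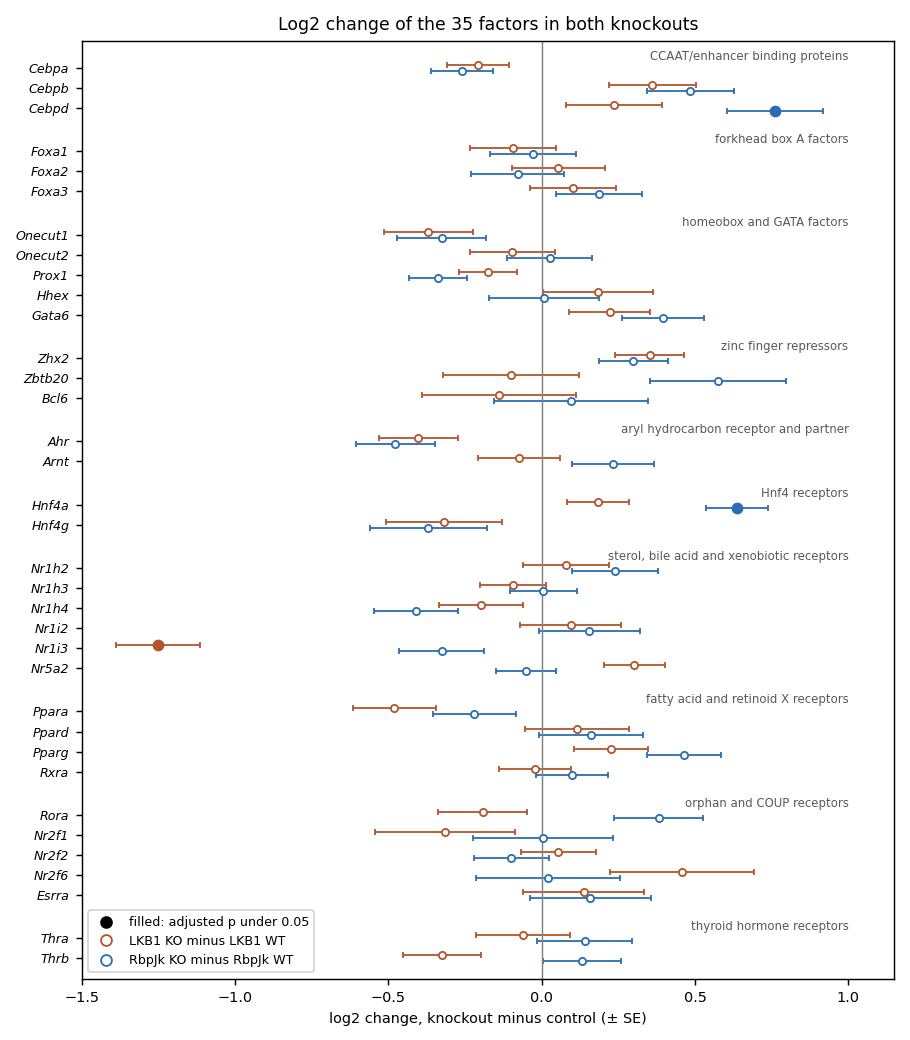
Log2 change (knockout minus control, ± SE, x axis) of each of the 35 factors (y axis, grouped by family) in the LKB1 arm (brown) and the RbpJk arm (blue), filled where the limma adjusted p is under 0.05. Nr1i3 stands alone at -1.25 in the LKB1 arm, and Hnf4a (0.64) and Cebpd (0.76) are the filled points of the RbpJk arm.

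Nr1i3, the constitutive androstane receptor, switches on phase I and phase II detoxification genes. Its log2 level was 9.24, 9.56 and 9.25 in the LKB1 WT livers and 8.28, 8.22 and 7.79 in the LKB1 KO livers. Each KO liver lay below each control, and the lowest control and the highest KO liver were 0.96 apart. The change was -1.25 ± 0.14 (SE, n = 3 and 3, limma adjusted p = 0.000343), with a 95% interval from -1.54 to -0.96. The liver with the lowest Nr1i3, LKB1 KO 3, was also the one with the lowest Stk11 (6.38) and the only LKB1 KO liver with high Xist. With Xist class as a covariate the change was -1.46 (limma adjusted p = 0.000418), and against the controls LKB1 KO 3 alone gave -1.56 (limma adjusted p = 0.00197, its spread taken from the other groups).

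In the RbpJk arm, Nr1i3 was 9.21, 9.50 and 9.48 in the controls and 9.13, 8.95 and 9.13 in the KO livers. These groups were also separate, by 0.08, but the change of -0.33 ± 0.14 did not pass (limma adjusted p = 0.288). The difference between the 2 effects was -0.92 ± 0.19 (95% interval -1.34 to -0.51), which missed the threshold over all genes (limma adjusted p = 0.084). Among the other settings tried it passed only with Xist class as a covariate. That shared term shifts both arms by the same amount, so it left the difference at its size and could not correct it for sex. The control livers of both arms were alike in level, with a difference of -0.05 ± 0.14.

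**Figure D2:**
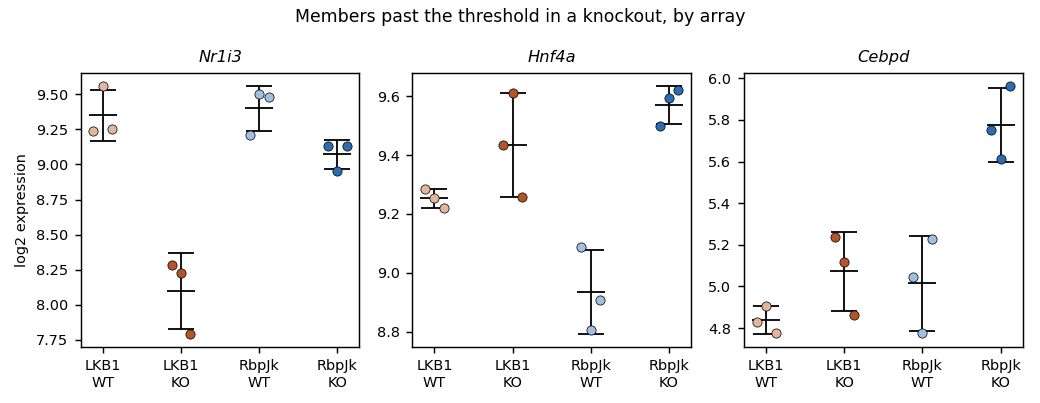
Log2 expression (y axis) of Nr1i3, Hnf4a and Cebpd on each array, by group (x axis), with the group mean and SD as bars. Nr1i3 is lowest in the 3 LKB1 KO livers (7.79 to 8.28), and Hnf4a (9.50 to 9.62) and Cebpd (5.61 to 5.96) in the 3 RbpJk KO livers lie above their own controls.

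The other sterol, bile acid and xenobiotic receptors did not pass in either arm. Nr1h4, the bile acid receptor, was 7.93, 7.74 and 8.01 in RbpJk WT livers and 7.19, 7.69 and 7.58 in RbpJk KO livers. All KO livers lay below all controls, by a gap of 0.05, and the change was -0.41 ± 0.14 (limma adjusted p = 0.169). Without RbpJk KO 1, the lowest of these livers, Nr1h4 was at -0.26 (limma adjusted p = 0.392). In the LKB1 arm its change was -0.20 (limma adjusted p = 0.865), again with no overlap, and -0.10 without LKB1 KO 3. The LXR genes Nr1h2 and Nr1h3 had changes of 0.08 and -0.09 in the LKB1 arm and of 0.24 and 0.01 in the RbpJk arm. Of these only Nr1h3 in the LKB1 arm had separate groups, by 0.02. Nr1i2, the pregnane X receptor, had changes of 0.09 and 0.16. Nr5a2, which governs bile acid and cholesterol genes, was higher without overlap in LKB1 KO livers (0.30, limma adjusted p = 0.27) and had a change of -0.05 in the RbpJk arm.

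Hnf4a was 9.09, 8.80 and 8.91 in RbpJk WT livers and 9.50, 9.59 and 9.62 in RbpJk KO livers. All KO livers were above all controls, with 0.41 between the nearest pair. The rise was 0.64 ± 0.10 (SE, n = 3 and 3, limma adjusted p = 0.00475), with a 95% interval from 0.42 to 0.86. It was 0.61 with Xist class as a covariate (limma adjusted p = 0.048) and 0.71 without RbpJk WT 1, the library with acinar markers (limma adjusted p = 0.00549).

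In the LKB1 arm Hnf4a was 9.28, 9.25 and 9.22 in the controls and 9.43, 9.61 and 9.26 in the KO livers. The groups overlapped, and the change was 0.18 ± 0.10 (limma adjusted p = 0.766). The RbpJk controls were lower than the LKB1 controls by 0.32 on the log2 scale (limma adjusted p = 0.209). The difference between the effects was -0.45 ± 0.14 (limma adjusted p = 0.315). Its relative Hnf4g, which is better known from the gut, was lower without overlap in the LKB1 arm (-0.32 ± 0.19, limma adjusted p = 0.81) and had a change of -0.37 ± 0.19 in the RbpJk arm.

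All 3 C/EBP genes had an unadjusted p under 0.05 in the RbpJk arm, Cebpb and Cebpd upward and Cebpa downward. In this arm 14.5% of all genes and 19.7% of the genes brighter than the median were under that level. Cebpd was 5.04, 4.78 and 5.23 in RbpJk WT livers and 5.75, 5.61 and 5.96 in RbpJk KO livers. All KO livers were above all controls, by a gap of 0.38. The rise was 0.76 ± 0.16 (SE, n = 3 and 3, limma adjusted p = 0.0224), with a 95% interval from 0.43 to 1.10. The call was lost with Xist class as a covariate (0.78, limma adjusted p = 0.118), without RbpJk WT 2 (0.64, limma adjusted p = 0.0871), without RbpJk KO 1 (0.77, limma adjusted p = 0.0584) and without RbpJk KO 3 (0.67, limma adjusted p = 0.109). In the LKB1 arm Cebpd was 4.83, 4.91 and 4.78 in the controls and 5.24, 5.12 and 4.86 in the KO livers, which overlapped (0.24 ± 0.16, limma adjusted p = 0.853).

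Cebpb, a C/EBP protein of the acute-phase and regeneration response, was higher without overlap in both arms and passed in neither. In RbpJk WT livers it was 5.64, 6.09 and 6.08 and in RbpJk KO livers 6.56, 6.28 and 6.43 (0.48 ± 0.14, limma adjusted p = 0.116). In LKB1 WT livers it was 5.54, 5.75 and 5.72 and in LKB1 KO livers 6.02, 6.09 and 5.98 (0.36 ± 0.14, limma adjusted p = 0.455). Cebpa, the C/EBP protein of the resting adult hepatocyte, was lower without overlap in both arms, with changes of -0.21 and -0.26 (limma adjusted p = 0.664 and 0.247).

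Ahr, the ligand-activated sensor of dioxin-like compounds, was lower without overlap in both arms. It was 7.87, 7.86 and 7.65 in RbpJk WT livers and 7.10, 7.43 and 7.42 in RbpJk KO livers (-0.48 ± 0.13, limma adjusted p = 0.0893). It was 7.64, 7.43 and 7.47 in LKB1 WT livers and 7.14, 7.27 and 6.91 in LKB1 KO livers (-0.40 ± 0.13, limma adjusted p = 0.262). Neither difference passed the threshold. Its dimer partner Arnt had changes of -0.07 and 0.23 in the LKB1 and RbpJk arms, with overlapping groups.

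Among the fatty acid receptors, Ppara, which drives fatty acid oxidation and ketogenesis, was 7.89, 8.20 and 7.98 in LKB1 WT livers and 7.47, 7.68 and 7.48 in LKB1 KO livers. The groups did not overlap, and the change of -0.48 ± 0.14 did not pass (limma adjusted p = 0.16). Its change in the RbpJk arm was -0.22 ± 0.14 with overlapping groups, and Ppara was at -0.09 without RbpJk KO 1. Pparg, which promotes fat storage and is low in normal hepatocytes, was 6.67, 6.55 and 6.84 in RbpJk WT livers and 7.12, 7.13 and 7.19 in RbpJk KO livers. The KO livers were all higher and close together, and the change was 0.47 ± 0.12 (limma adjusted p = 0.0744), which passed when each array was centred on its median (0.52, limma adjusted p = 0.0279). In the LKB1 arm Pparg overlapped between groups (0.23 ± 0.12). Ppard and the common partner Rxra overlapped between groups in both arms, with changes from -0.02 to 0.16.

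**Figure D3:**
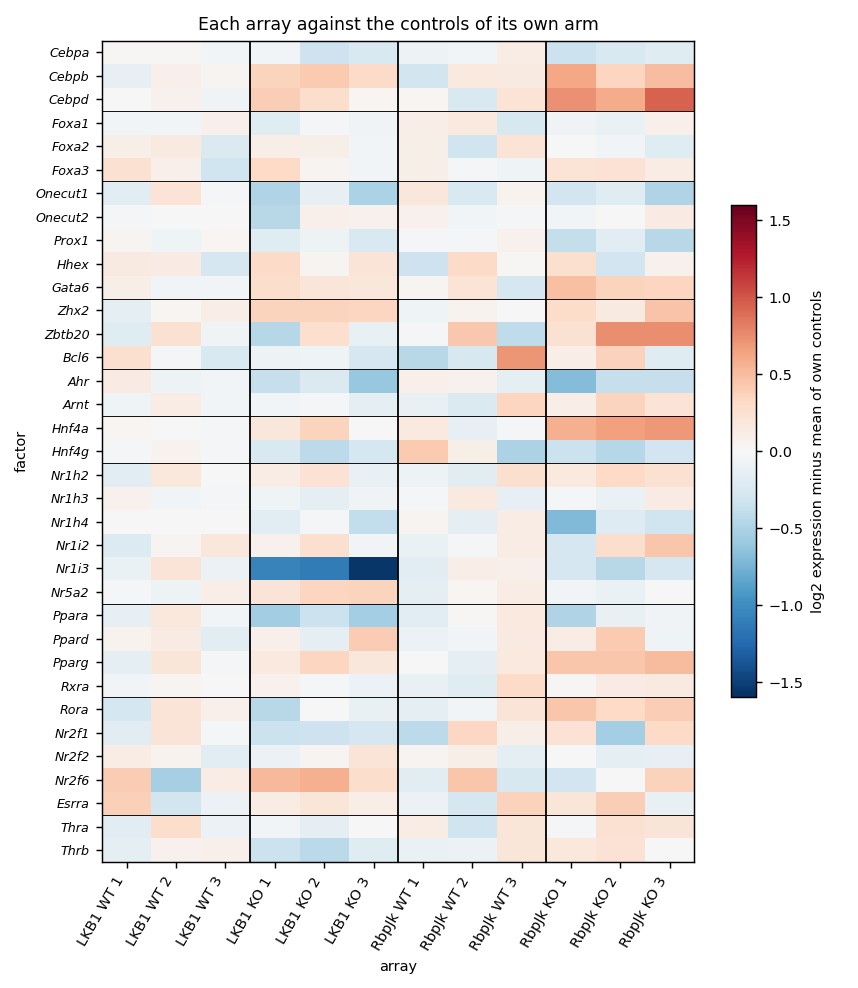
Log2 expression of each factor (rows, by family) on each of the 12 arrays (columns) minus the mean of the control livers of the same arm, red for higher and blue for lower. The deepest blue is Nr1i3 in the LKB1 KO livers, and Cebpb, Gata6 and Zhx2 are red while Ahr and Prox1 are blue in the KO livers of both arms.

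In 8 factors (22.9%) the KO livers were beyond their controls in both arms and in the same direction, against 2.72% of all genes. In opposite directions there were 0 factors (0.97% of all genes). The share among genes brighter than the median was not counted. Within each arm, non-overlap was more common in those genes (21.8% and 21.5%) than in all genes (16.4% and 16.2%). Below the controls in both arms were Cebpa, Prox1, Ahr, Nr1h4 and Nr1i3, and above them were Cebpb, Gata6 and Zhx2. The arms share no controls, but in both of them more controls than KO livers had high Xist. With Xist class as a covariate all 8 kept their signs in both arms, the smallest being Gata6 in the LKB1 arm (0.22 without the covariate and 0.09 with it). The shared Xist term shifts a factor by the same amount in each arm, so the arms are not separate checks. Nr1i3 in the LKB1 arm is the only one of these 16 changes past the threshold. Over the whole roster, 22 of 35 changes (62.9%) had the same sign in both arms, against 54% of all genes.

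The remaining homeobox and GATA factors showed small differences. Prox1, required for hepatocyte migration out of the liver bud, had changes of -0.18 and -0.34 (limma adjusted p = 0.742 and 0.102 in the LKB1 and RbpJk arms). Gata6, which acts in the early liver bud, had changes of 0.22 and 0.40 (limma adjusted p = 0.809 and 0.172). Onecut1 (HNF6), a factor of bile duct and hepatocyte development, was lower by a similar amount in both arms, -0.37 and -0.33, with overlapping groups. Onecut2 and Hhex lay between -0.10 and 0.18 in both arms.

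None of the FoxA genes, the pioneer factors of endoderm, passed the test. In the LKB1 and RbpJk arms the log2 changes were -0.09 and -0.03 for Foxa1, 0.05 and -0.08 for Foxa2 and 0.10 and 0.19 for Foxa3. Only Foxa3 in the RbpJk arm had separate groups, by 0.02.

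Among the zinc finger and homeodomain repressors, Zhx2, which silences fetal genes such as Afp after birth, was higher without overlap in both arms (0.35 and 0.30, limma adjusted p = 0.268 and 0.235). Zbtb20, another repressor of Afp, had changes of -0.10 ± 0.22 and 0.58 ± 0.22 with overlapping groups, the latter being the largest difference of the RbpJk arm among factors whose groups overlapped (limma adjusted p = 0.242). Bcl6, a repressor of fat-handling genes, had changes of -0.14 and 0.09.

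The orphan, COUP and thyroid hormone receptors did not pass in either arm. Rora, an activator of clock genes, was higher without overlap in RbpJk KO livers (0.38 ± 0.15, limma adjusted p = 0.237) and had a change of -0.19 in the LKB1 arm. Nr2f1 was lower without overlap in LKB1 KO livers (-0.32 ± 0.23, limma adjusted p = 0.883). Nr2f6 had the largest positive change among the 35 factors in the LKB1 arm, 0.46 ± 0.24, with overlapping groups. Nr2f2 and Esrra, a regulator of mitochondrial genes, stayed between -0.10 and 0.16. The thyroid hormone receptor gene Thrb was lower without overlap in LKB1 KO livers (-0.32 ± 0.13, limma adjusted p = 0.463) and had a change of 0.13 in the RbpJk arm, while Thra had changes of -0.06 and 0.14.

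In 15 of the 35 factors the absolute change was under 0.25 in both arms. The 95% interval of a factor's change reached from 0.20 to 0.54 on either side of it. In these 15 factors it included 0 in both arms, so their changes could not be told from 0. Between the controls of the arms no factor passed by limma (0 of 35, against 0.699% of all genes called, 0.367% higher in the LKB1 controls and 0.332% lower). At an unadjusted p under 0.05 there were 3 factors (8.57%) against 12.5% of all genes. The control differences of the factors lay between -0.30 and 0.33. No factor passed the limma test of the difference between the knockout effects (0 of 35, against 0.181% of all genes called, 0.0518% higher in the LKB1 effect and 0.129% lower). In that test 7 factors (20%) had an unadjusted p under 0.05, against 9.13% of all genes. The smallest adjusted p there was that of Nr1i3.

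The genes these factors are known to govern were followed from textbook lists, where rose and fell stand for changes past the threshold. Over all genes, 0.962% were called in the LKB1 arm and 1.68% in the RbpJk arm. An unadjusted p under 0.05 was held by 8.05% and 14.5% of all genes. Control levels of some targets differed between the arms. Past the threshold there were 3 of 12 Nr1i2 and Nr1i3 targets, 2 of 15 Ppara targets and 1 of 5 thyroid hormone targets. No gene of the other target lists passed between the controls, where 0.699% of all genes were called. Of 12 measured targets of Nr1i2 and Nr1i3, 1 rose and 2 fell in LKB1 KO livers, and the list's median change was -0.04 against -0.01 over all genes. The fallen genes were Ugt1a1, which conjugates bilirubin (-1.47 ± 0.22, limma adjusted p = 0.00373), and the carboxylesterase Ces2a (-0.74 ± 0.15, limma adjusted p = 0.0308). The risen gene was the cytochrome P450 Cyp2c55 (3.29 ± 0.25, limma adjusted p = 1.13e-05), from 3.48 to 3.86 in the controls to 6.65 to 7.10.

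In RbpJk KO livers 3 targets of that list rose and 1 fell, with a median change of 0.04. Cyp2c55 rose here as well (2.54 ± 0.25, limma adjusted p = 0.000128), as did the stress gene Gadd45b (1.30 ± 0.28, limma adjusted p = 0.032) and Cyp2c29 (2.31 ± 0.51, limma adjusted p = 0.036). Cyp2b9 fell (-0.54 ± 0.08, limma adjusted p = 0.00325). Cyp2b10, the gene by which Nr1i3 activity is commonly read, named here after its values were seen, was dim on all arrays, between 2.49 and 3.66, with changes of 0.13 and -0.25. The Cyp2b, Cyp2c and Ugt1a genes have close relatives whose transcripts can bind the same probes, so their values are uncertain in that respect.

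**Figure D4:**
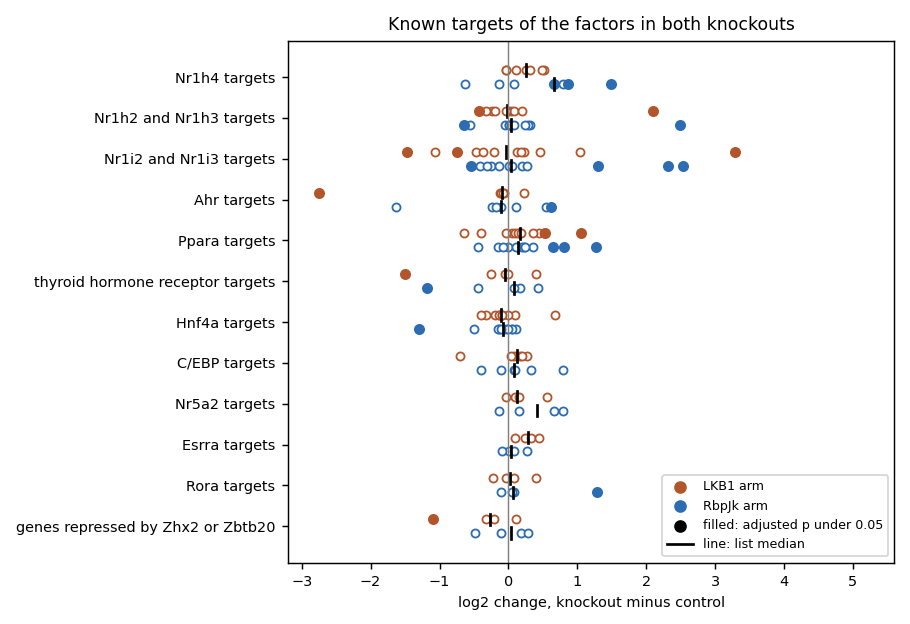
Log2 change (knockout minus control, x axis) of each measured target of the factors, 1 row per list, in the LKB1 arm (brown) and the RbpJk arm (blue), filled where the limma adjusted p is under 0.05, with the list median as a black line. The medians lie near 0 in most lists, and single targets such as Cyp2c55 (3.29 and 2.54), Scd1 (2.10 and 2.49) and Cyp1a2 (-2.76 and -1.63) lie far from it.

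Among 7 bile acid receptor (Nr1h4) targets, 0 passed in the LKB1 arm (2 at an unadjusted p under 0.05) and 3 rose in the RbpJk arm, with medians of 0.25 and 0.67. The canalicular bile salt pump Abcb11 was 9.25 to 9.64 in RbpJk WT and 10.28 to 10.36 in RbpJk KO livers (0.87 ± 0.13, limma adjusted p = 0.003). The phospholipid pump Abcb4 (0.67 ± 0.13, limma adjusted p = 0.0157) and the bile acid exporter subunit Slc51b (1.49 ± 0.31, limma adjusted p = 0.0237) rose with it. Among 11 LXR targets, the desaturase Scd1 rose in both arms (2.10 ± 0.23 and 2.49 ± 0.23, limma adjusted p = 0.000307 and 9.48e-05). In this list the cholesterol exporter Abca1 fell in LKB1 KO livers (-0.43 ± 0.09, limma adjusted p = 0.0323), and the sterol transporter Abcg5 fell in RbpJk KO livers (-0.65 ± 0.15, limma adjusted p = 0.0388).

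Of 7 Ahr targets, Cyp1a2, a major P450 of the mature liver, fell in LKB1 KO livers from 8.43 to 9.0 to 5.34 to 6.81 (-2.76 ± 0.39, limma adjusted p = 0.00262). In the RbpJk arm it was -1.63 ± 0.39 and did not pass (limma adjusted p = 0.0542), and Tiparp, a feedback repressor of Ahr, rose (0.62 ± 0.14, limma adjusted p = 0.0345). Ahr itself was lower in both arms, as given above. Cyp1a1 was at 4.10 or below on all arrays.

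Of 15 Ppara targets, 2 rose in LKB1 KO livers, the acyl-CoA thioesterase Acot1 (1.05 ± 0.20, limma adjusted p = 0.0229) and the peroxisomal enzyme Ehhadh (0.54 ± 0.10, limma adjusted p = 0.0254), and 3 rose in RbpJk KO livers. Those were the lipid droplet protein Plin2 (0.80 ± 0.10, limma adjusted p = 0.000517), the pyruvate dehydrogenase kinase Pdk4 (1.27 ± 0.19, limma adjusted p = 0.00347) and the lipase inhibitor Angptl4 (0.64 ± 0.12, limma adjusted p = 0.0172). The medians of this list were 0.17 and 0.14, and 0 of its genes were called lower in either arm. In the LKB1 and RbpJk arms 3 and 4 of them had negative changes, and 6 and 5 had an unadjusted p under 0.05. Of 5 thyroid hormone targets, the deiodinase Dio1 fell in both arms (-1.51 ± 0.21 and -1.18 ± 0.21, limma adjusted p = 0.0026 and 0.0115).

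Of 11 measured Hnf4a targets 0 passed in the LKB1 arm (3 at an unadjusted p under 0.05), and 1 fell in the RbpJk arm, where Hnf4a itself rose. That gene was Cyp7a1, which sets the rate of bile acid production from cholesterol, at 8.40 to 8.93 in RbpJk WT and 7.06 to 7.44 in RbpJk KO livers (-1.29 ± 0.26, limma adjusted p = 0.0216). The list medians were -0.10 and -0.09. Of 6 C/EBP targets 0 passed in either arm (3 and 2 at an unadjusted p under 0.05), with Orm2, an acute-phase protein, at 0.80 ± 0.19 in the RbpJk arm (limma adjusted p = 0.0572) and Orm1 at -0.70 ± 0.19 in the LKB1 arm (limma adjusted p = 0.133).

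Of 4 genes repressed by Zhx2 or Zbtb20, Gpc3, a glypican of fetal liver, fell in LKB1 KO livers (-1.10 ± 0.14, limma adjusted p = 0.00114) and was -0.49 in the RbpJk arm (limma adjusted p = 0.107), while Afp had changes of -0.21 and -0.11. Of 4 Rora targets, the clock repressor Nr1d1 rose in RbpJk KO livers (1.29 ± 0.18, limma adjusted p = 0.00153), from 6.79 to 7.30 to 8.09 to 8.45, and had a change of -0.03 in the LKB1 arm. Of 4 Nr5a2 targets and 4 Esrra targets 0 passed in either arm by limma. At an unadjusted p under 0.05 there were 1 and 2 Nr5a2 targets in the LKB1 and RbpJk arms and 2 and 0 Esrra targets.

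Of 27 other measured nuclear receptors, 1 fell in LKB1 KO livers, the oestrogen receptor Esr1, which lay at 7.10 to 7.41 in the controls and 5.74 to 6.24 in the KO livers (-1.28 ± 0.15, limma adjusted p = 0.000698). Esr1 in the RbpJk arm was -0.48 ± 0.15 (limma adjusted p = 0.145), Nr1d1 rose, and Esrrg, an orphan receptor of oxidative metabolism, fell (-0.95 ± 0.19, limma adjusted p = 0.0211). Of 28 other liver transcription factors 0 passed in the LKB1 arm (7 at an unadjusted p under 0.05). In the RbpJk arm the cholesterol regulator Srebf2 rose (0.61 ± 0.10, limma adjusted p = 0.00778) and the antioxidant regulator Nfe2l2 fell (-0.59 ± 0.10, limma adjusted p = 0.00619). Of 13 coactivators and corepressors 0 passed in either arm (2 and 2 at an unadjusted p under 0.05), the nearest being Nrip1 in the RbpJk arm (0.52 ± 0.13, limma adjusted p = 0.071).

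**Figure D5:**
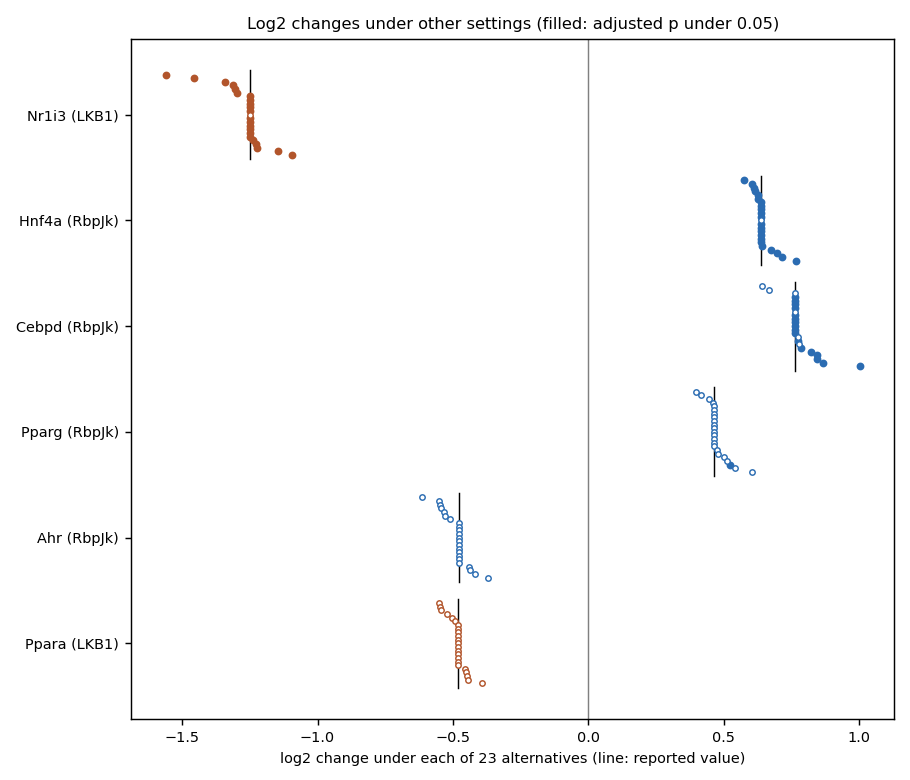
Log2 change (x axis) of 6 factors under each of 23 alternative settings (points, filled where the adjusted p is under 0.05), with the reported value as a black line, in the LKB1 arm (brown) and the RbpJk arm (blue). Nr1i3 ranged from -1.56 to -1.10, Hnf4a from 0.57 to 0.77 and Cebpd from 0.64 to 1.0, with no change of sign.

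Across the alternatives, Nr1i3 in the LKB1 arm and Hnf4a in the RbpJk arm each lost the call in 1 of 23, the methods' t-test on the 6 arrays of the arm, which calls 0 of 23186 genes in either arm after adjustment. Cebpd lost it in 6 of 23. With Xist class as a covariate, 12 of the 32 calls outside the roster were lost, those of Acot1, Ehhadh, Abca1 and Ces2a in the LKB1 arm and of Abcb4, Angptl4, Tiparp, Gadd45b, Cyp2c29, Cyp7a1, Esrrg and Dio1 in the RbpJk arm. The calls of Esr1, Ugt1a1, Cyp1a2 and Gpc3 in the LKB1 arm, of Abcb11, Pdk4 and Plin2 in the RbpJk arm and of Scd1 and Cyp2c55 in both were lost only with the methods' t-test. Among the list genes called in a knockout contrast, leaving out 1 array took away the call of 14 in at least 1 case, the 12 lost with the Xist covariate and Abcg5 and Slc51b in the RbpJk arm, with limma adjusted p from 0.0522 to 0.16 in those cases.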

How the data were processed

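The authors deposited 1 table of log2 expression values for 12 arrays and 25206 probe sets. Partek is named, with no version, in the submitters' processing notes, with normalization and probe set definition not given in the sources used here. Values were used as deposited, with no further scaling, and arrays give no depth, so the number of arrays limits the precision.

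Probe sets were named from the platform annotation (23185 named, 2021 not), and 1 factor, Nr1h2, through the Entrez number of its row. The 23186 named genes were fitted together in limma 3.58.1 (R 4.3.3) with 4 group means, a mean-variance trend and no covariate, with Benjamini-Hochberg adjustment over all of them and a threshold of 0.05. Contrasts were each knockout against the controls of its arm, the difference of those effects, and control against control. The fit was tested on simulated data with 50 changed genes of each size. A log2 change of 0.5 was called in 10% (LKB1) and 20% (RbpJk) of those genes, so it was mostly missed. A change of 1 was called in 74% in each arm. Among unchanged genes there were 11 and 9 calls.

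Called factors are given on every array, factors without overlap and with an absolute change of at least 0.4 as values, and the others by counts, ranges or log2 changes. Of the other lists, up to 4 called genes with the smallest p are named. The factors and lists were chosen with earlier results of these data known. Alternatives covered the samples fitted, variance model, array weights, scaling, filter, Xist class, single arrays left out and the t-test of the methods. Figures were drawn with matplotlib 3.10.9 and pandas 2.3.3 in Python 3.11.15.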

Additional observations from a re-analysis of the deposited data

Results flagged for a closer look

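Nfe2l2, the antioxidant regulator among the other liver transcription factors, had knockout effects that differed between the arms by 0.92 on the log2 scale (limma adjusted p = 0.0142), with changes of 0.33 in the LKB1 arm (limma adjusted p = 0.186) and -0.59 in the RbpJk arm (limma adjusted p = 0.00619). That difference of Nfe2l2 kept its size but not its call without LKB1 WT 2 (0.89), LKB1 WT 3 (0.89) or RbpJk KO 3 (0.87) or without the intensity trend (0.92), with limma adjusted p from 0.0503 to 0.0609. Within 1 Xist class, which leaves 1 LKB1 KO and 1 RbpJk WT array whose spread is taken from the other groups, it was 0.75 (limma adjusted p = 0.227). With 3 livers in each group, no test for outlying livers was run beyond leaving out each array in turn.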

How the results depend on the processing

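Over 23 alternatives of each knockout comparison and 21 of the others, none of the called changes reversed. Of the 35 factors, 12 in the LKB1 arm and 10 in the RbpJk arm had another sign in at least 1 alternative, each with an absolute change of at most 0.14. Under quantile normalization 35 (LKB1) and 30 (RbpJk) kept their sign and under median centring 34 and 33, and the 23 factors above 0 in the RbpJk arm became 20 and 25. The count of called factors in the LKB1 arm was 1 throughout except 0 with the methods' t-test. In the RbpJk arm it went from 2 to 1 with the 6 arrays of the arm alone and with Xist class as a covariate and to 0 with the methods' t-test. It was 3 with quantile normalization, which added Prox1, and 3 with median centring, which added Pparg. Leaving out single arrays gave 1 to 2, with 1 (Hnf4a) without RbpJk WT 2, RbpJk KO 1 or RbpJk KO 3. For the difference of the effects the count went from 0 to 1 (Nr1i3) with Xist class as a covariate, a shared term that leaves the difference itself unchanged.

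Over all genes, calls in the LKB1 arm went from 223 to 131 without the intensity trend, 512 with array weights, 132 with the Xist covariate, 59 within 1 Xist class and 0 with the methods' t-test. Leaving out single arrays gave 106 to 235, with 132, 118 and 118 without LKB1 WT 1, 2 and 3, and 124 and 106 without LKB1 KO 2 and 3. In the RbpJk arm they went from 390 to 157 with the arm alone, 259 with array weights, 599 with median centring, 187 with the Xist covariate and 0 with the methods' t-test, and leaving out single arrays gave 194 to 465, with 257 without RbpJk WT 2 and 194 without RbpJk KO 3. For the difference they went from 42 to 3 within 1 Xist class and to between 15 and 57 with single arrays left out, with 22, 20, 26 and 15 without LKB1 WT 2, LKB1 WT 3, LKB1 KO 3 and RbpJk KO 3. Between the controls they went from 162 to 1 with the methods' t-test and to 70, 73 and 272 without LKB1 WT 2, LKB1 WT 3 and RbpJk WT 1. The fits within 1 Xist class hold 1 LKB1 KO array against 3 controls and 3 RbpJk KO arrays against 1 control, with the lone array assumed to vary like the other groups, so their counts also reflect fewer arrays. Higher genes made up 66.4% of RbpJk calls, 80% after median centring, 58.9% after quantile normalization and 51.8% without RbpJk WT 1, the library with acinar markers, where lower calls went from 131 to 224. The cause of these shifts was not tested.

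The call of Stk11 was lost with the methods' t-test and without LKB1 WT 1, 2 or 3 or LKB1 KO 2 or 3 (limma adjusted p from 0.0583 to 0.088). No paired analysis was possible because the labels' codes link no knockout liver to a control, and no batch is given.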
